A study of Mus musculus with 4 samples.

Results

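The Rab GTPases are 59 of the 18193 genes named on the array, chosen as the genes whose only symbol on a probe set is Rab followed by a number and at most a letter and a further digit. They carry 132 of its probe sets, and they were chosen by symbol, with no threshold on an expression value. The samples were 4 laser-captured preparations of Purkinje cells, the inhibitory neurons that carry the output of the cerebellar cortex, taken from intact C57BL/6J male mice that were 8 weeks old. There were 2 mice with 2 preparations each, called 1-1, 1-2, 2-1 and 2-2 by animal and preparation, and all belong to a single untreated group. The labels do not say whether preparations of an animal were separate captures, how many cells each held or how the cells were recognised.

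Rab proteins are small GTPases of the Ras superfamily that mark the membranes of the cell. In the GTP-bound form each sits on its own set of membranes and binds effectors (tethers, motors, lipid enzymes) that move, dock or fuse vesicles there. Exchange factors load GTP, GTPase-activating proteins (GAPs) end the active state, and GDP dissociation inhibitors (GDIs) carry the prenylated protein through the cytosol to the next cycle. A Purkinje cell has to supply a very large dendritic tree, a long axon and GABA-releasing terminals, so it uses secretory, endosomal and synaptic vesicle routes at the same time.

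Levels are log2 signals after quantile normalization, and each gene is represented by the probe set that was brightest on average. On each array a background bound was set at the 95th percentile of the levels of 86 genes that mark other organs, which gave 5.81, 5.36, 5.39 and 5.63 in samples 1-1, 1-2, 2-1 and 2-2. Of these 86 genes, Tff1, Krt1, Krt10 and Lor passed it on all 4 arrays. A gene is called above background when it passed on all 4 arrays. Probe sets respond differently to the same amount of RNA, so paralogs are compared by the side of the bound on which they lie and by their change between samples, and the level of a gene is not set against that of another. All 16 measured Purkinje cell genes passed on every array. So did 13 of 16 Bergmann glia and astrocyte genes, 7 of 15 granule cell genes, 4 of 13 oligodendrocyte genes, 2 of 12 interneuron genes, 2 of 13 blood vessel genes and 1 of 12 microglia genes. Some genes that mark neighbouring cells were thus above background, and in such samples fewer cells of a type and less RNA per cell cannot be told apart.

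Above background on all 4 arrays were 36 of the 59 Rab genes, or 61%, where 29.9% of all named genes were. A further 5 (Rab5c, Rab8a, Rab24, Rab26 and Rab29) passed on 1 to 3 arrays, and 18 passed on none. Rab genes had a median of 2 probe sets and all named genes a median of 1, and the part of this in the share was not tested. By number of probe sets, the Rab genes that passed were 9 of 21 genes with 1 probe set (42.9%, against 16.2% of all such genes), 14 of 20 with 2 (70%, against 35.4%) and 13 of 18 with 3 or more (72.2%, against 53.2%). Counted by probe set, 55 of 132 passed on all 4 arrays (41.7%), where 18.5% of all probe sets did. Among other small GTPases, 11 of 15 genes in the Arf, Sar and Arl list and 11 of 29 in the Ras list passed. No test was made of these shares, because genes are not replicates.

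**Figure D1:**
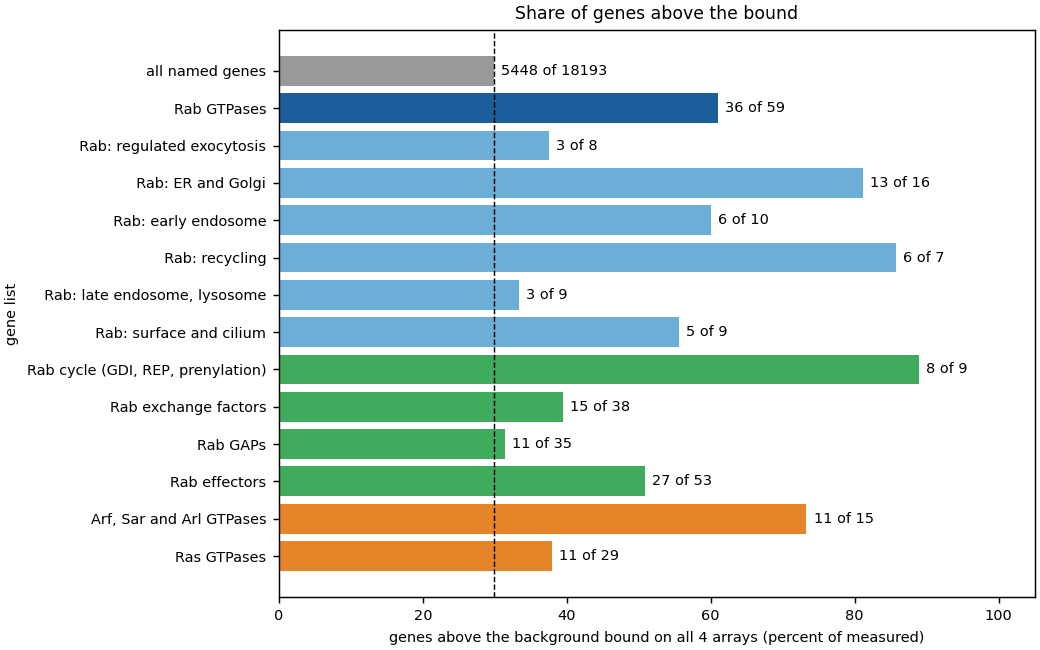
Bars give the percentage of measured genes above the background bound on all 4 arrays (x axis) for each gene list (y axis), with the counts beside them and a dashed line at the 29.9% of all named genes. Rab genes of the ER and Golgi (13 of 16) and of recycling (6 of 7) reach farthest among the Rab compartments, and those of regulated exocytosis (3 of 8) and of the late endosome and lysosome (3 of 9) lie nearest to the line.

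By membrane compartment, the shares above background were highest for recycling and for the ER and Golgi. In the ER and Golgi 13 of 16 passed, among recycling Rabs 6 of 7, in the early endosome 6 of 10, and among Rabs of the cell surface and cilium 5 of 9. Regulated exocytosis had 3 of 8 and the late endosome and lysosome 3 of 9. Each Rab was given a single compartment here although several act at more than one, and with 7 to 16 genes a compartment these counts move by several genes with the bound. With the bound at the 99th percentile they became 10, 3, 3, 4, 1 and 2 in that order, when 20% of all named genes passed. With the median over probe sets in place of the brightest they were 11, 4, 4, 2, 1 and 4, when 23.5% of all named genes passed. The median number of probe sets a gene was 1 for the late endosome and lysosome, 3 for regulated exocytosis and 2 for the other compartments.

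Promoter windows are shown for paralogs that fell on opposite sides of the bound, because they let the sequence at the start site be read beside the array result. They are 300 bases from RefSeq on GRCm38.p6, from 250 before to 50 after the annotated start, with each CpG dinucleotide in capitals, and for genes with several starts the window with the most CpG was taken. Rab11a marks the recycling endosome of most cells and Rab25 is its epithelial paralog.
Rab11a, chr9:64737707-64738006 on the minus strand: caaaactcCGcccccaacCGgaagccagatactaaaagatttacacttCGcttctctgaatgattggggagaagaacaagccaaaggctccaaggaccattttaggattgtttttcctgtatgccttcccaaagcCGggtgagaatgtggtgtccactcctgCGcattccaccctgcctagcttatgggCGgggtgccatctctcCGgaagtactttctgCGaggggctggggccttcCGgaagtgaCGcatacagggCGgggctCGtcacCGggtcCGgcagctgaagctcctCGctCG
Rab25, chr3:88548230-88548529 on the minus strand: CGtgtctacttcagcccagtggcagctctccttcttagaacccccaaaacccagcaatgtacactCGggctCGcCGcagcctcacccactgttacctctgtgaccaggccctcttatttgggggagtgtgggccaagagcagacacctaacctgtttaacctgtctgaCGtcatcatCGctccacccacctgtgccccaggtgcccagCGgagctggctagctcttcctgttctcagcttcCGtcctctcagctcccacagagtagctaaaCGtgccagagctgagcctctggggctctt
Rab3a is the main Rab of synaptic vesicles and Rab3b a paralog of regulated secretion.
Rab3a, chr8:70754852-70755151 on the plus strand: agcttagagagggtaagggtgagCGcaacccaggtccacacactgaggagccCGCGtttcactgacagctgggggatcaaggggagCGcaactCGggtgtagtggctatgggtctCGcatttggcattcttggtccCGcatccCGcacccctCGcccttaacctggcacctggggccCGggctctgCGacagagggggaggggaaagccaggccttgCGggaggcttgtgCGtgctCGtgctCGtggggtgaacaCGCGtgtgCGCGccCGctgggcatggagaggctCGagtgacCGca
Rab3b, chr4:108878820-108879119 on the plus strand: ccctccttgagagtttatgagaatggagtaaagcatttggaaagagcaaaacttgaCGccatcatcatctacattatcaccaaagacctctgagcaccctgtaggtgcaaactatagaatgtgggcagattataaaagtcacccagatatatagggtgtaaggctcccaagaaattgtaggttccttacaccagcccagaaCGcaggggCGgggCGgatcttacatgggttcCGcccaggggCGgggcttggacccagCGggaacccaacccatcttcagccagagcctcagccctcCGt
Rab39b is a neuronal Rab of the Golgi, and Rab39 its paralog known from phagosomes.
Rab39b, chrX:75578182-75578481 on the minus strand: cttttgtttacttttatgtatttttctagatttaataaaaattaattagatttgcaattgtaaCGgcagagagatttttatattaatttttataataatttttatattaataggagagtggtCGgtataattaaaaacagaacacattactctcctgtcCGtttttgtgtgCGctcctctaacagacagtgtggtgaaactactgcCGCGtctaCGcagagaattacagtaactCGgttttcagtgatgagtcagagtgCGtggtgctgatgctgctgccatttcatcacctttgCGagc
Rab39, chr9:53706183-53706482 on the minus strand: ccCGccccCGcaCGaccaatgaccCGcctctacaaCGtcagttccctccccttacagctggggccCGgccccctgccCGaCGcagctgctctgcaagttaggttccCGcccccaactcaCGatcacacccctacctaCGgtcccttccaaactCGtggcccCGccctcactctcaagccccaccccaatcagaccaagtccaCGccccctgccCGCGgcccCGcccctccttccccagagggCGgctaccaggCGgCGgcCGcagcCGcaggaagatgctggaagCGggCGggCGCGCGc

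The window of Rab11a, above background on all 4 arrays, holds 16 CpG, and that of Rab25, above it on none, holds 9. Rab3a with 22 and Rab3b with 8 run the same way. Rab39b and Rab39 run the other way, since Rab39b passed on all 4 arrays with 10 CpG in a window of 35.7% G and C, and Rab39 passed on none with 27 CpG at 70.7%. Windows were found for 48 of the 59 Rab genes. The 32 genes above background held a median of 26.5 CpG (range 7 to 45), the 12 that passed on no array held 12.5 (range 5 to 27), and the 4 between them held 23. All measured genes with a window showed the like difference, with medians of 24 for 4484 genes above background and 9 for 7413 genes above on no array. The ranges of the Rab classes overlap widely, and Rab33a passed on all 4 arrays with 7 CpG.

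**Figure D2:**
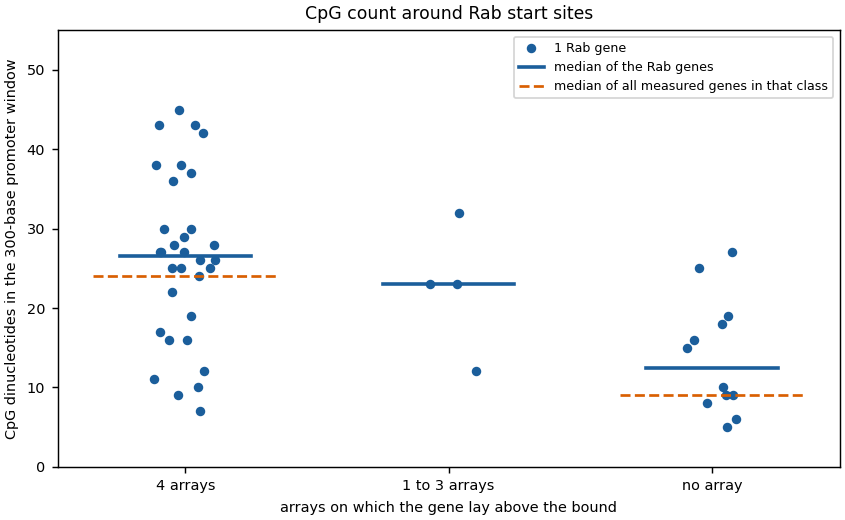
Each point is a Rab gene, with the CpG dinucleotides of its 300-base promoter window on the y axis and the number of arrays on which it lay above the bound on the x axis. Solid lines are medians of the Rab genes (26.5, 23 and 12.5) and dashed lines medians of all measured genes in the outer classes (24 and 9).

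Of motifs searched on both strands, the GC box GGGCGG was in the windows of 26 of 32 Rab genes above background and of 7 of 12 above on no array. Over all measured genes it was in 56.1% of these windows, with 70.7% for genes above background and 42.7% for genes above on no array. The TATA core TATAAA was in 1 of the 32 and 2 of the 12, against 9.36% of all, the E-box CACGTG in 2 and 1, against 9.22%, and the cAMP response element TGACGTCA in 1 and 1, against 2.70%. In the same order, the shares were 5.55%, 11.5% and 3.97% for all measured genes above background. For those above on no array they were 12.9%, 7.62% and 1.92%. Over every promoter window in the RefSeq table, several a gene included, these shares were 35.7%, 13.6%, 7.15% and 1.79% for the GC box, TATA core, E-box and cAMP response element. These matches describe the letters in the windows.

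The synaptic and secretory Rabs split within their subfamilies. Rab3a, which binds synaptic vesicles in the GTP form and leaves them around fusion, was at 12.44, 12.43, 12.60 and 12.57 in samples 1-1, 1-2, 2-1 and 2-2, from deposited signals of 4759 to 7514. All 4 samples lay far above the bound and within 0.17 of each other. That probe set is of the kind that can bind several transcripts, and the other Rab3a probe set, also above the bound on all 4 arrays, stood at 8.13, 8.44, 9.13 and 8.32. Rab3c, a further Rab3 of synaptic vesicles, was at 7.20, 7.14, 6.42 and 6.44 on the single probe set of 5 that passed on all arrays, and both samples of animal 2 were lower than those of animal 1. Its 4 dimmer probe sets did not share this direction. The brightest of these had means of 5.03 in animal 1 and 5.69 in animal 2. Rab3d, best known from exocrine granules, was at 6.37, 5.57, 6.09 and 6.14, close to the bound in every sample, on 1 of its 4 probe sets. Rab3b lay between 0.80 and 3.61, below the bound in each sample.

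Rab27a and Rab27b, which move melanosomes and secretory granules, were below the bound on all 4 arrays with each of their 4 probe sets. Their brightest probe sets had deposited signals of 0.4 to 16.1 for Rab27a and 4.6 to 13 for Rab27b. Rab37, known from mast cell granules, also passed on no array. Rab26, a Rab of secretory granules and clustered synaptic vesicles, was at 6.65, 4.77, -0.05 and 2.11, so that only sample 1-1 passed, and animal 1 was higher than animal 2 in both samples. With 1 probe set and 1 sample above the bound it did not enter the test between animals. After the values were seen, effectors known to bind Rab27 were looked up in the effector list. Sytl1, Sytl2, Sytl4, Mlph, Myrip, Unc13d and Rph3al were below the bound on all 4 arrays. Rph3a, which binds both Rab3 and Rab27, was above the bound on all 4 (5.70 ± 0.07, SD, n = 2 animals), but only narrowly. It was at 5.90, 5.41, 5.54 and 5.96 in samples 1-1, 1-2, 2-1 and 2-2. The bounds there were 5.81, 5.36, 5.39 and 5.63. Over the effector list 15 of 53 genes passed on no array, and over all named genes 9600 of 18193. Of the Rims genes in the effector list, Rims2 (8.28 ± 0.34) was above the bound on all 4 arrays, Rims1 and Rims4 on 3 and Rims3 on none.

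**Figure D3:**
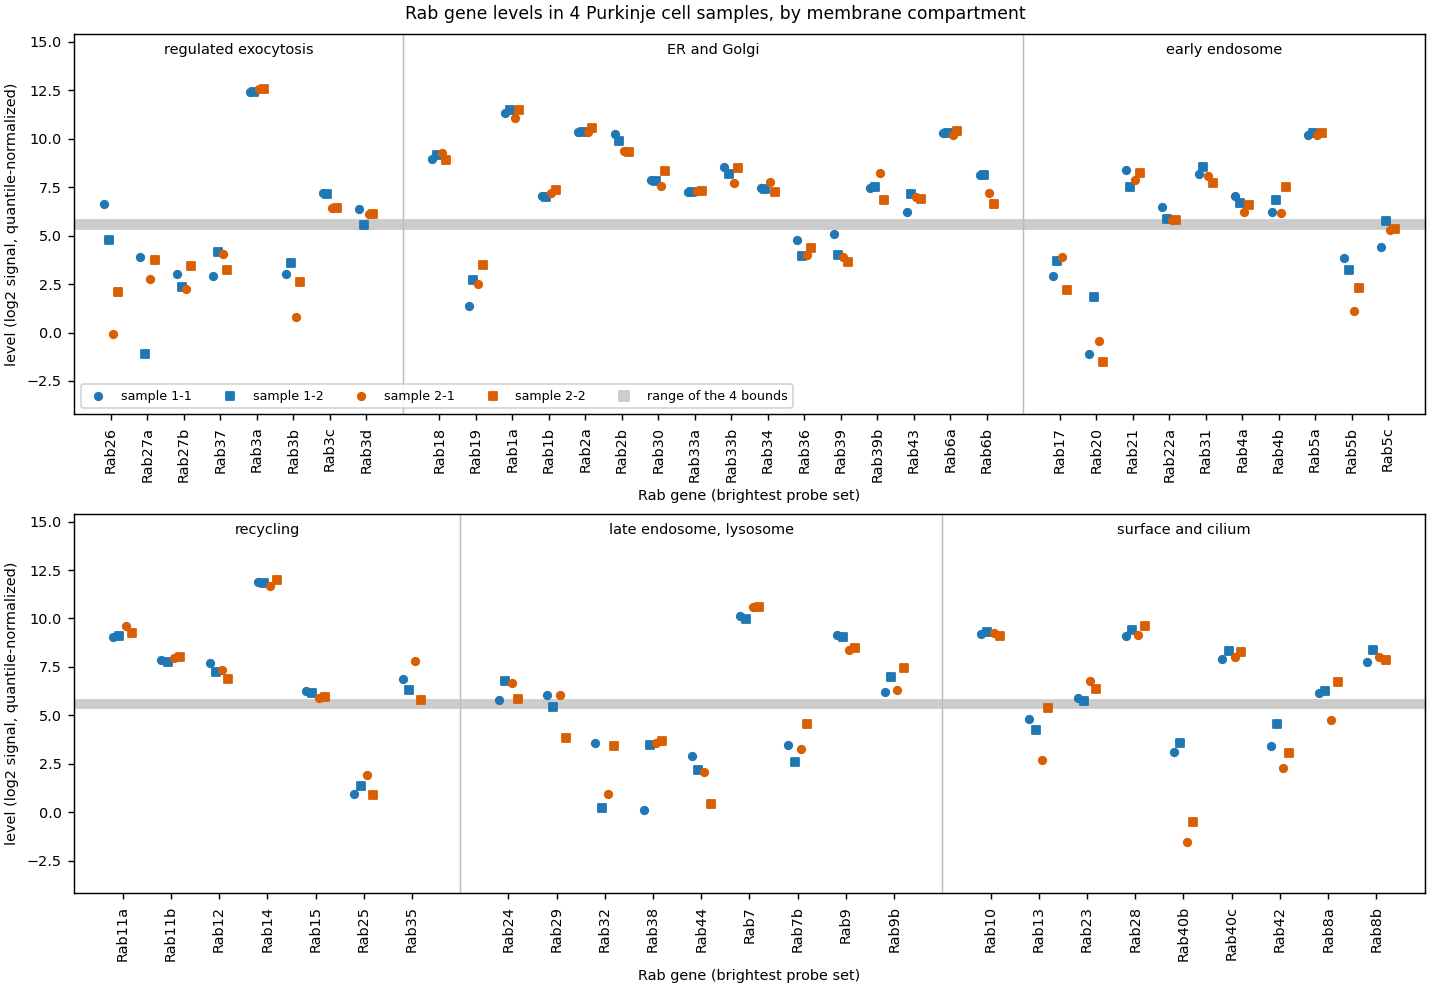
Points give the log2 level (y axis) of the brightest probe set of each of the 59 Rab genes (x axis) in samples 1-1, 1-2 (blue), 2-1 and 2-2 (orange), with the range of the 4 background bounds as a grey band. Paralogs fall on both sides of the band, such as Rab3a at 12.43 to 12.60 and Rab3b at 0.80 to 3.61, and samples scatter more below the band than above it.

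Among Rabs of the early secretory route, Rab1a and Rab1b, which carry cargo from the ER to the Golgi, both passed. Rab1a was at 11.35, 11.49, 11.08 and 11.49 and Rab1b at 7.05, 7.01, 7.22 and 7.34, with the animals overlapping for Rab1a and animal 2 above animal 1 for Rab1b. Rab2a and Rab2b, of the compartment between ER and Golgi, also passed. Rab2a was at 10.33, 10.35, 10.36 and 10.54, nearly level across samples, on a probe set that can bind several transcripts. In all, 5 of its 7 probe sets passed on all arrays. Rab2b was at 10.24, 9.90, 9.37 and 9.33, lower in both samples of animal 2.

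Rab6a and its neuronal paralog Rab6b serve traffic within the Golgi and back to the ER. All 3 probe sets of Rab6a passed on all 4 arrays, and the brightest was at 10.32, 10.32, 10.19 and 10.41. Rab6b was at 8.14, 8.11, 7.19 and 6.62 on the 1 of its 4 probe sets that passed, so that both samples of animal 2 were below those of animal 1. Rab33a, at 7.27, 7.27, 7.30 and 7.32, varied by only 0.05 across the samples, the smallest range of the 36 genes above background. Its paralog Rab33b, which acts at the Golgi and in autophagosome formation, was at 8.56, 8.19, 7.71 and 8.50. Rab39b was at 7.45, 7.51, 8.25 and 6.86 on its brightest probe set, and Rab39 at 5.07, 4.02, 3.90 and 3.66. Rab18 of the ER and lipid droplets (9.08 ± 0.03, SD, n = 2 animals), Rab30 (7.90 ± 0.07), Rab34 (7.48 ± 0.05) and Rab43 (6.81 ± 0.19) passed as well, and Rab19 and Rab36 passed on no array.

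Of the Rab5 paralogs, which drive fusion of early endosomes, only Rab5a passed on all 4 arrays, at 10.20, 10.30, 10.19 and 10.31. Rab5c was at 4.43, 5.76, 5.30 and 5.33 and above the bound in sample 1-2 alone. Rab5b was at 3.86, 3.23, 1.13 and 2.31, and its other probe set was below the bound too. These 3 genes rest on 1, 1 and 2 probe sets, so a low value belongs to the probe set and does not show that the RNA was absent. Rab4a, which returns cargo quickly from early endosomes, was at 7.05, 6.69, 6.21 and 6.58, and Rab4b at 6.22, 6.87, 6.15 and 7.53. Both lay above the bound in all 4 samples, and the animals overlapped for Rab4b only. The Rab4a values come from a probe set that can bind several transcripts. Its other probe set was below the bound on all 4 arrays, at 4.55, 5.32, 1.21 and 4.38. Rab22a was at 6.48, 5.88, 5.82 and 5.79 and Rab31, its closest paralog, at 8.20, 8.56, 8.07 and 7.74. Rab21, of integrin traffic, passed with both of its probe sets (8.01 ± 0.07, SD, n = 2 animals). The epithelial Rabs Rab17 and Rab20 passed on no array.

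On the recycling route Rab11a was at 9.06, 9.07, 9.62 and 9.25 and Rab11b at 7.83, 7.74, 7.95 and 8.00, each above the bound in all samples. On these probe sets both samples of animal 2 were the higher, but the other Rab11a probe set, also above the bound on all 4 arrays, ran the other way at 8.05, 8.10, 7.70 and 7.38. Neither Rab11a difference passed the test between animals (0.37 ± 0.22 and -0.53 ± 0.31, SE, limma, adjusted p = 0.454 and 0.432). The 2 other Rab11b probe sets were below the bound on all 4 arrays. Their means were lower in animal 2, at 4.83 against 4.15 and 2.58 against 1.94 in animals 1 and 2. Rab25 was at 0.95, 1.36, 1.89 and 0.88. Rab14, which links the Golgi and endosomes, was at 11.88, 11.85, 11.68 and 11.96 on a probe set that can bind several transcripts, and 3 of its 6 other probe sets also passed on all arrays. Rab12 (7.29 ± 0.25, SD, n = 2 animals), Rab15 of endocytic recycling in neurons (6.06 ± 0.21) and Rab35 of the plasma membrane (6.69 ± 0.14) completed the group. The mean of Rab35 hides its range of 1.98, the widest of the 36 genes, from 5.80 in sample 2-2 to 7.78 in sample 2-1.

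Of the late endosome and lysosome Rabs, Rab7, Rab9 and Rab9b passed on all 4 arrays. Rab7, which directs late endosomes to the lysosome, was at 10.15, 9.98, 10.57 and 10.60, and Rab7b at 3.45, 2.61, 3.24 and 4.56. Rab9, which returns receptors from late endosomes to the Golgi, was at 9.17, 9.04, 8.35 and 8.49, and Rab9b at 6.20, 6.95, 6.31 and 7.45. Rab32 and Rab38, of melanosomes and other lysosome-related organelles, and Rab44 of blood cells passed on no array. Rab29, which recruits the kinase Lrrk2 to membranes, was at 6.03, 5.44, 6.03 and 3.84 and missed the bound only in sample 2-2. Lrrk2 itself passed on 3 arrays. Rab24, which is tied to autophagy, was at 5.79, 6.79, 6.65 and 5.82 and fell just short of the bound in sample 1-1 alone.

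At the cell surface, Rab10 of exocytic carriers passed with all 3 of its probe sets (9.20 ± 0.07, SD, n = 2 animals). Rab8b, of transport to the plasma membrane, was at 7.74, 8.38, 8.02 and 7.85. Its paralog Rab8a was at 6.16, 6.26, 4.76 and 6.74, below the bound in sample 2-1 alone. Rab23, a ciliary Rab of hedgehog signalling, was at 5.91, 5.75, 6.79 and 6.36, and Rab28, known from photoreceptor cilia, at 9.12, 9.41, 9.13 and 9.62. Rab40c, which works with a cullin ubiquitin ligase, was at 7.90, 8.31, 8.02 and 8.29, while Rab40b was at 3.08, 3.55, -1.53 and -0.49. Rab13 and Rab42 passed on no array.

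Agreement among probe sets set a limit on these calls. Of the 36 genes above background, 27 had several probe sets. In 7 of the 27 every probe set passed on all 4 arrays (Rab3a, Rab6a, Rab10, Rab11a, Rab21, Rab34 and Rab39b), in 16 only 1 did, and in 18 at least 1 was below the bound on all 4. The spread can be wide within a gene, as in Rab8b with 8.00 and -1.09 and Rab14 with 11.84 down to 0.22. With the median over probe sets in place of the brightest, 26 of 59 Rab genes passed (44.1%, when 23.5% of all named genes did).

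**Figure D4:**
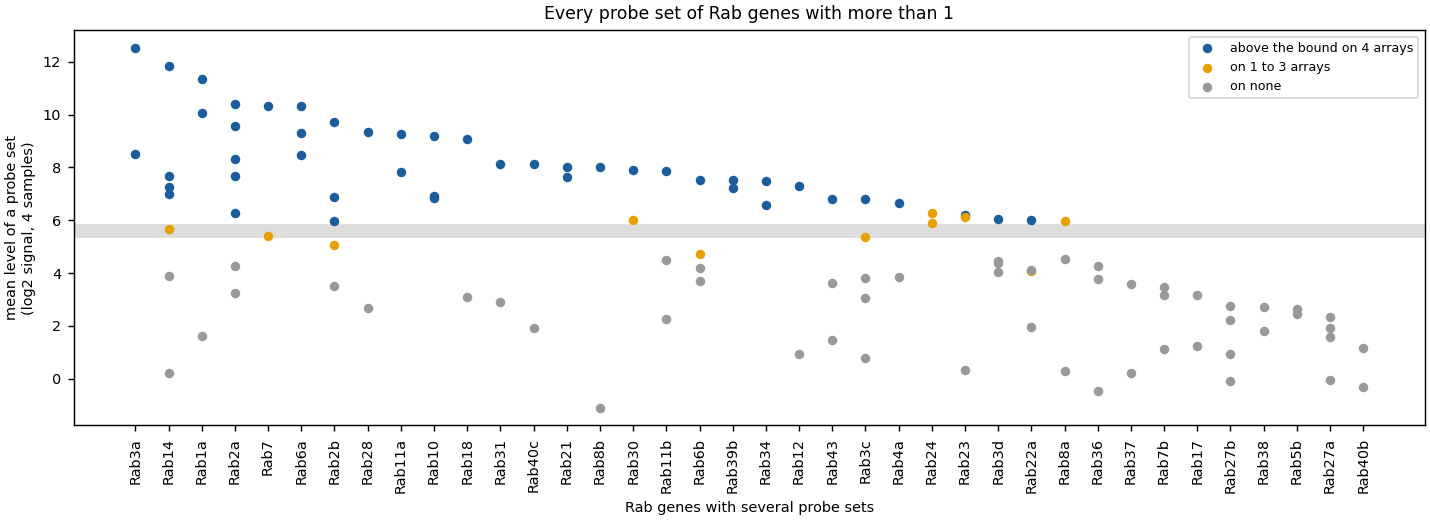
Each point is the mean log2 level over 4 samples (y axis) of a probe set of the 38 Rab genes with more than 1 (x axis), coloured by whether it lay above the bound on 4 arrays, 1 to 3 or none. Most genes above the grey band of bounds also have probe sets well below it, and all probe sets of Rab27a, Rab27b, Rab5b and Rab7b are grey.

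The proteins that turn Rabs over were measured on the same arrays. Of 9 genes of the Rab cycle 8 passed on all 4 arrays, of 38 exchange factors 15, of 35 GAPs 11 and of 53 effectors 27, where 29.9% of all named genes passed. Together these were 61 of 135 genes (45.2%). Among exchange factors Rabgef1, which loads Rab5, was at 10.06 ± 0.25 (SD, n = 2 animals), Dennd5a at 9.71 ± 0.33 and Ccz1, a subunit of the Rab7 exchange factor, at 9.70 ± 0.13, while the Ras-linked Rab5 exchange factors Rin1 and Rin2 were below the bound on every array. Among GAPs Tbc1d15, which acts on Rab7, was at 9.65 ± 0.25, Tbc1d14 at 8.97 ± 0.39 and Tbc1d10b at 8.28 ± 0.23, and Sgsm2 and Tbc1d2 were below the bound on every array. Among effectors the oxysterol-binding Rab7 partner Osbpl1a was at 11.59 ± 0.08, the Rab11 partner Rab11fip5 at 10.53 ± 0.08 and Rufy3 at 9.95 ± 0.03, and Mical1 and the mitotic kinesin Kif20a were below the bound on every array. Named after its value was seen, the inhibitor Gdi2 was at 11.97 ± 0.15.

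By median difference, samples of an animal were closer to each other than to samples of the other animal, in the Rab genes as in all genes. Over the 36 Rab genes above background the median absolute log2 difference was 0.15 between samples 1-1 and 1-2 and 0.27 between 2-1 and 2-2, and 0.29 to 0.35 for the 4 pairs across animals. Over all 5448 genes above background the corresponding values were 0.22, 0.37 and 0.40 to 0.43. The mean over pairs across animals less that within animals was 0.11 for the Rab genes and 0.11 for all genes. It was 0.25 on values as deposited, where the arrays of animal 2 are brighter. Without sample 1-1 it was 0.037, without 1-2 0.048 without 2-1 0.21 and without 2-2 0.16. In 16 of the 36 Rab genes the samples of an animal did not overlap those of the other, 8 higher and 8 lower in animal 2. Among all genes above background 49.7% did not overlap.

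Between the animals 0 of 63 Rab probe sets tested passed an adjusted p of 0.05 (limma, Benjamini-Hochberg over all 11849 probe sets, 2 samples an animal), where 43 of all probe sets, 0.363%, did. At an unadjusted p under 0.05 there were 9 of the 63, 5 higher and 4 lower in animal 2, where 16.8% of all probe sets had one. Both animals were untreated and alike in their labels, so this comparison describes these mice, and its error is the spread of the 2 samples of each.

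The Rab probe sets with the smallest p are given by value. Higher in both samples of animal 2 was 1 of the 2 probe sets of Rab39b, with a difference of 1.29 ± 0.36 on the log2 scale (SE, limma, adjusted p = 0.171), while the other, brighter one stood at 0.07 ± 0.49. Rab7 differed by 0.52 ± 0.15 (adjusted p = 0.171). A probe set of Rab2a differed by 0.97 ± 0.33 (adjusted p = 0.219), and the 4 others of that gene that were tested stood between -0.52 and 0.11. A probe set of Rab23 differed by 1.55 ± 0.56 (adjusted p = 0.245) and its brightest by 0.75 ± 0.47. Lower in both samples of animal 2 were a probe set of Rab2b (-0.72 ± 0.20, adjusted p = 0.162), Rab6b (-1.22 ± 0.35, adjusted p = 0.174) and Rab9 (-0.68 ± 0.24, adjusted p = 0.230). The 3 other Rab2b probe sets tested stood at -0.02, -0.22 and -1.42. A dim probe set of Rab14 stood at -1.48 ± 0.58 (adjusted p = 0.269), and its brightest at -0.05 ± 0.11. The 3 other Rab6b probe sets were too dim to be tested. Their means were higher in animal 2, at 4.63 against 4.79, 3.87 against 4.49 and 3.15 against 4.22 in animals 1 and 2. Thus none of these values passed, and in Rab39b, Rab2a, Rab2b, Rab6b and Rab14 the differences of the gene's probe sets were unlike in size or sign.

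Rab6b was called in the absence of sample 2-1, at -1.51 ± 0.31 (limma, adjusted p = 0.0314), the single Rab call among the fits that left out a sample. That was 1 of 62 Rab probe sets, in a fit that called 8.3% of all probe sets. Without normalization the median difference over all probe sets was 0.48, animal 2 being the brighter, and 3 of 63 Rab probe sets were called higher. They were Rab39b at 1.86 ± 0.40, Rab7 at 0.98 ± 0.20 and the bright probe set of Rab3a at 0.57 ± 0.11, when 5.1% of all probe sets were called. Granule cell genes were also lower in animal 2. Their summed normalized signal over 15 genes was 4572 and 5552 in samples 1-1 and 1-2 and 2209 and 2242 in samples 2-1 and 2-2, with 7 of 15 above background and Slc17a7 and Pax6 below the bound on every array. That of the 16 Bergmann glia and astrocyte genes was 15503, 15112, 13522 and 12342, with 13 above background. In the same order it was 5430, 5228, 4711 and 3505 for 13 oligodendrocyte genes, 950, 1075, 633 and 540 for 13 blood vessel genes and 389, 287, 175 and 190 for 12 microglia genes, with 4, 2 and 1 above background. All of these sums were lower in both samples of animal 2. That of 12 interneuron genes was lower there too, at 662, 723, 529 and 594. The sum of the 16 Purkinje cell genes was higher in both samples of animal 2, at 82459, 81977, 88416 and 88443 in the same order. Calb1 of that list stood at 13.68 on all 4 arrays and so added nothing to the difference. Sums weigh the brightest genes most, and members of a list did not all run the same way. Olig1, C1qb, Glul, Fabp7 and Gfap, for example, were higher in both samples of animal 2. The Purkinje cell gene Gng13, for example, was lower in both, at 13.47, 13.50, 13.24 and 13.31 in the same order. The part of these sums in the Rab values was not tested.

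**Figure D5:**
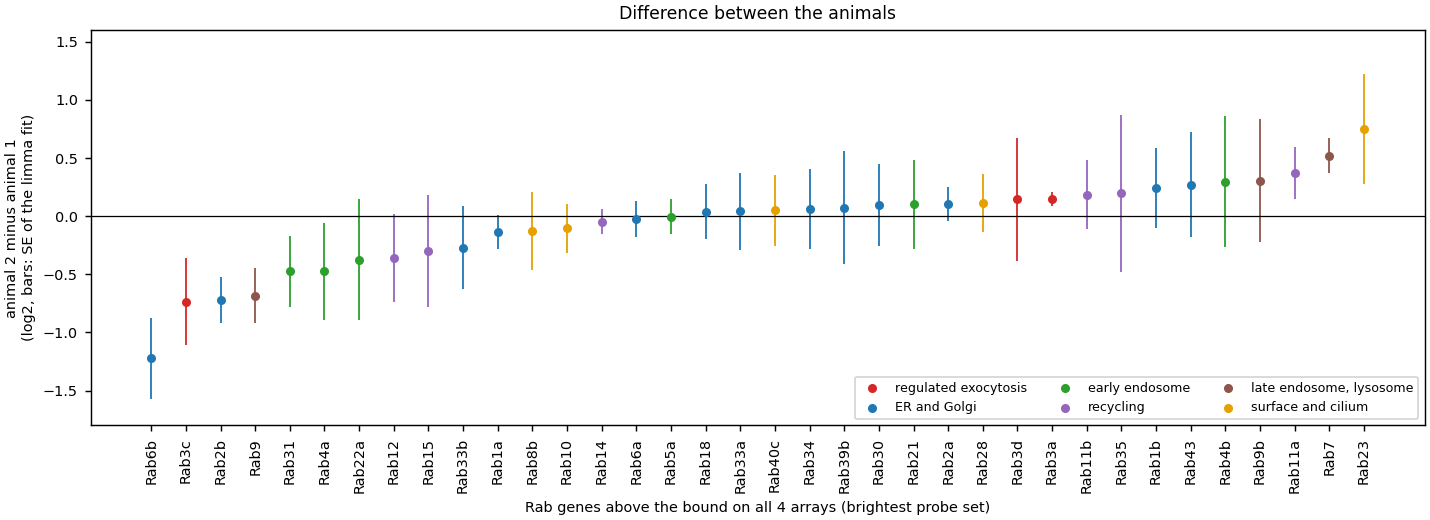
Points give animal 2 minus animal 1 on the log2 scale (y axis) for the brightest probe set of the 36 Rab genes above background (x axis), coloured by compartment, with bars of 1 SE from the limma fit. Values run from -1.22 for Rab6b to 0.75 for Rab23, on both sides of 0 in most compartments.

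Of 116 probe sets of the Rab partner genes tested, 1 was called between the animals, where 0.363% of all probe sets were, and 13 (11.2%) had an unadjusted p under 0.05, where 16.8% of all did. The called gene was Icmt, which methylates prenylated cysteines at the end of Ras and some Rab proteins. It was at 9.84, 9.96, 11.12 and 11.27, higher in both samples of animal 2 by 1.30 ± 0.14 (SE, limma, adjusted p = 0.0345). The call was lost in 4 of 10 other fits, with adjusted p = 0.252 without the variance trend, 0.111 with no filter on dim probe sets, 0.152 without sample 1-1 and 0.212 without sample 1-2, while the difference lay between 1.22 and 1.75 in all 10. These fits of Icmt were added after the data were seen.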

How the data were processed

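Per the labels' protocols, frozen brains were cut sagittally, sections were fixed in ethanol and acetic acid, cells were laser-captured, and RNA was amplified and labelled by an Affymetrix protocol from about a nanogram. The authors deposited linear intensity values from GCOS, per the submitters' processing notes. For their algorithm and scaling the sources used here give nothing. Of 45101 probe sets 1 had a value of 0. Array medians were 8.4, 8.5, 9.6 and 11.4, and precision is limited by having only 4 arrays.

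Signals were floored at 0.1, 64 control probe sets were left out, log2 was taken, and arrays were quantile-normalized because their trimmed means differed by 46.6% of their average (limma 3.58.1, R 4.3.3). Genes came from the platform annotation table: 34945 probe sets had 1 symbol and 932 several. All 59 Rab symbols matched RefSeq by gene identifier and 0 needed an update. Of 95 background genes 86 were measured. The animals were compared across all probe sets in limma (lmFit, then eBayes with its trend option), keeping probe sets that passed the bound on 2 or more arrays. This left 2 residual degrees of freedom. The steps were tested on simulated data. SDs are over 2 animals.

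The Rab set was defined by symbol alone, but it, the compartments and the lists were chosen with earlier results of these data known. A further list of small GTPases is not reported here. All Rab genes could be named. Sample values were given for subfamilies and for the 4 smallest p in each direction. Of each partner list, called genes were named, otherwise the 3 highest above the bound and the 2 lowest below it. Alternatives were other bounds, normalizations, probe set choices, filters, a fit without trend, a replicate block and leaving out each sample. Replicates may be technical, so p-values measure only the spread between these samples.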

Additional observations from a re-analysis of the deposited data

Results flagged for a closer look

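In 3 of the 59 Rab genes a sample stood apart from the other 3 by Dixon's criterion at the 95% level. The criterion flags about 1 group in 20 by chance when the 4 values are independent. These were 2 samples from each of 2 animals, so the number that chance gives here is not known. Rab22a was highest in sample 1-1 at 6.48, with the other samples between 5.79 and 5.88, all above background. Rab2a was highest in sample 2-2 at 10.54, with the others between 10.33 and 10.36, so that the gap is small and stands out only because the others agree closely. Rab38 was lowest in sample 1-1 at 0.09, with the others between 3.49 and 3.68, all below the background bound.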

How the results depend on the processing

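The count of Rab genes above background was 36 of 59 and stayed between 26 and 39 under all settings run except the 99th percentile bound, which gave 23 of 59. Without each sample in turn it was 36 or 37. Under every setting run 19 genes were above background, among them Rab1a, Rab2a, Rab3a, Rab5a, Rab6a, Rab7, Rab9, Rab11a and Rab14, and 19 were above under none. Rab12, Rab18, Rab3d and Rab4a were lost without probe sets of the _x_at, _s_at and _a_at kinds, which left 3 Rab genes unmeasured, 2 of them above background otherwise, while Rab24 was gained. Partner genes above background numbered 44 to 87 of the 121 to 135 measured.

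Rab probe sets called between the animals were 0, with 3 on values as deposited, and 0 to 1 without each sample. The cause was not tested. Over all probe sets the count of 43 became 604 on values as deposited, 98 with equal array medians, 60 with an offset of 16, 5 with no filter on dim probe sets, 0 without the trend (1732 at an unadjusted p under 0.05) and 2 to 1092 without a sample. With the sample number as a replicate block 399 were called, 0 of them Rab probe sets. Samples with the same number did not deviate together (r = -0.01 over probe sets), so the number was not taken to pair them. The 8 named Rab differences kept their direction in each of the 10 other fits, except that the Rab14 probe set was tested in only 8 of them. For most of these fits that outcome was fixed. The fits without the trend, without the filter or with a replicate block give the same difference as the main fit. In these probe sets the animals do not overlap, so leaving out a sample cannot reverse the sign. Only the fits on values as deposited, with equal array medians or with the offset could have changed it. The between less within difference of 0.11 was 0.25 on values as deposited and 0.037 to 0.21 without each sample.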
